A study of Macaca mulatta with 28 samples.

Results

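Chaperones bind unfolded proteins and help them fold. In the endoplasmic reticulum (ER) the main ones are the Hsp70 protein BiP, encoded by HSPA5, and the Hsp90 protein GRP94, encoded by HSP90B1, and they work with J proteins, lectin chaperones and protein disulfide isomerases. When unfolded protein accumulates in the ER, the sensors IRE1 (ERN1), PERK (EIF2AK3) and ATF6 start the unfolded protein response, which acts through the transcription factors XBP1, ATF4 and ATF6 and raises ER chaperones and the machinery of ER-associated degradation. In the cytosol the heat shock factor HSF1 drives a separate set, among them HSP90AA1, DNAJB1, HSPH1 and the small heat shock proteins, and mitochondria have HSPA9, HSPD1 and HSPE1.

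The genes described here are a list of 42 such chaperones and response genes, taken by gene symbol with no threshold on a measured value, of which 41 are among the 16885 named transcripts of the count table. HSPA1B is not analysed here. The table lists 1 Ensembl transcript per gene, so a value stands for that transcript and not for the whole gene. A transcript was tested if it had at least 5 counts in at least 3 animals, which 39 of the 41 members and 13769 of all transcripts did.

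RNA came from tissue punches of the VTA (ventral tegmental area), where the dopamine neurons of the mesolimbic pathway sit, of 28 adult male wild-type rhesus macaques, with 1 library per animal. The 17 drinkers had self-administered ethanol over long open-access periods broken by imposed abstinence, and the 11 controls were yoked to them for calories or housed without ethanol. The tissue labels give 30 days of abstinence, and they place the drinkers in categories of low (1 animal), binge (2), heavy (5) and very heavy (9) drinking. The study's methods add that animals came in 2 cohorts. Its source data give the cohort of each drinker, but that of a control was inferred from the set of voltammetry recordings it belongs to, so every comparison by cohort rests on this assignment. It puts 8 controls and 8 drinkers in cohort 1 and 3 controls and 9 drinkers in cohort 2. A punch holds many cell types, so fewer cells of a type and less RNA per cell cannot be told apart in these values.

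Total counts per animal ranged from 12303914 to 27338669, and transcripts of the mitochondrial genome took 36.4% to 60.6% of them. The dopamine neuron markers TH and SLC6A3 had counts in every animal, but with a wide spread, from 83 to 18843 counts for TH, so the share of dopamine neurons or of their RNA differed between punches. RBFOX3, a defining neuron marker, was at 0 in 27 animals and the astrocyte marker SLC1A2 in all 28, as listed for the 1 transcript of each.

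Promoter sequences are shown for the ER members that hold an ER stress element and for 1 member with a heat shock element, as examples of the short DNA elements that these pathways are known to use. The ER members are all those with the element, the heat shock example was taken for its result between cohorts, and the windows of DNAJB11 and MANF, whose levels followed HSPA5, hold neither form of the ER stress element. Windows ran from 250 bases before to 50 bases after the RefSeq start site in Mmul_10, and both strands were searched. The ER stress element, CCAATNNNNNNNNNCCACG, is the known binding site of ATF6 with NF-Y. It was in 4 of 41 member windows (9.76%), those of HSPA5, HSP90B1, PDIA6 and CRELD2, and in 14 of 20787 windows of all genes (0.0673%). Its shorter relative ERSE-II, ATTGGNCCACG, was in 11 windows of all genes (0.0529%), and the only member with it was HYOU1, which held 2 copies. In the lines that follow each sequence reads 5′ to 3′ on the gene's own strand, and capitals mark the fixed letters of the element, which appear as CGTGG and ATTGG or CCAAT where the element lies on the other strand.
HSPA5, chr15:15428301-15428341, plus strand: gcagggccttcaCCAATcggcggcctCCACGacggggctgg
HSP90B1, chr11:103631886-103631928, plus strand: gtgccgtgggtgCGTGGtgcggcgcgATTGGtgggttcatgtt
CRELD2, chr10:1552791-1552833, minus strand: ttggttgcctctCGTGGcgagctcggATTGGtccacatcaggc
PDIA6, chr13:97948561-97948603, plus strand: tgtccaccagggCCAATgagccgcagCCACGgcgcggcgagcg
HYOU1, distal copy, chr14:112124059-112124093, minus strand: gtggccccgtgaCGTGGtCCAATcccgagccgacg
HYOU1, proximal copy, chr14:112123954-112123988, minus strand: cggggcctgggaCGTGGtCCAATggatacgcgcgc

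The element began 29 bases before the start site in HSPA5 and ended 11 bases before it. In HSP90B1 it lay from 156 to 138 bases before the start, in PDIA6 from 75 to 57 and in CRELD2 from 62 to 44. The parts of the element are common on their own: CCACG was in 39.6% of all windows and in 28 member windows, and CCAAT was in 34% of all windows and in 25 member windows. The distal copy in HYOU1 overlaps the element TGACGTGG, a site of XBP1 and ATF6, which no other member had and which was in 0.736% of all windows. The element TGATGCAAT, bound by ATF4, was in 0.13% of all windows and in 0 members.

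The heat shock element, searched as GAA, TTC and GAA with any 2 bases between each, is the binding site of HSF1. It was in 71 of all windows (0.342%) and in those of 4 members, HSPA8, HSP90AA1, CRYAB and DNAJB6, of which HSPA8 held 2 copies. The line for HSP90AA1, the member with the lowest p between cohorts, has the element on the other strand, where it reads TTC, GAA and TTC.
HSP90AA1, chr7:164313734-164313770, minus strand: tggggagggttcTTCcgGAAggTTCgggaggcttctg

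Most members were measured in every animal. Of the 41 in the table, 35 had counts in every animal, and their normalized counts (counts divided by DESeq2's size factors) had a median coefficient of variation of 17.9% across the 28 animals. For all 8329 transcripts with counts in every animal the median was 23.2%. Where the mean was also at least 100 normalized counts, the medians were 17.5% for 34 members and 20.7% for 6946 transcripts. P4HB, a disulfide isomerase, varied least at 7.10%, followed by HERPUD1, a membrane protein of ER-associated degradation, at 10.4%. PDIA3, a disulfide isomerase that works with the lectin chaperones, varied most at 77.6%, from 8.48 to 2494 normalized counts.

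The remaining 6 members were at 0 in some or all animals. ATF3, a stress-induced transcription factor, was at 0 in all 28, and SEL1L, an adaptor of ER-associated degradation, had 6 counts in 1 control and none elsewhere. CALR, the soluble lectin chaperone, was at 0 in 23 animals, HSPA4, a cytosolic exchange factor, in 19, HSP90AB1, the constitutive cytosolic Hsp90, in 15, and ATF6 in 12. Their highest counts were 141 for CALR, 432 for HSPA4, 54 for HSP90AB1 and 150 for ATF6. Each zero is that of the listed transcript and need not hold for the whole gene, and its cause was not tested. ATF3 and SEL1L were under the count filter, and the fits give no usable fold for CALR, HSPA4, HSP90AB1 and ATF6.

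Across animals, a group of ER lumen chaperones followed HSPA5. When all 13768 other tested transcripts were ranked by their Pearson correlation with HSPA5 on variance stabilized counts (a log2-like scale), DNAJB11, a J protein partner of BiP, came first at r = 0.82, and HSP90B1 came second at r = 0.80. CRELD2, an ER stress-induced disulfide isomerase-like protein, was at rank 4 (r = 0.72) and MANF, a secreted ER protein, at rank 8 (r = 0.65). XBP1 was at rank 16 (r = 0.58) and HYOU1, the exchange factor of BiP, at rank 17 (r = 0.58). Thus 6 of the first 20 transcripts were members, while members are 0.276% of the transcripts ranked. The other names among the first 5 were OPRM1 (rank 3, r = 0.72), the mu opioid receptor, whose listed transcript had a median count of 0, and TAF1 (rank 5, r = 0.70), a subunit of the general transcription factor TFIID, with a median count of 83.

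These ranks moved only in part when a trend of counts on transcript GC content was removed from each library, an alternative chosen after the data were seen. CRELD2, DNAJB11 and HSP90B1 then held ranks 1 to 3, with r = 0.77, 0.73 and 0.70, and MANF rank 5 with r = 0.67. OPRM1 was at rank 9 with r = 0.60 and TAF1 at rank 4 with r = 0.70.

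**Figure D1:**
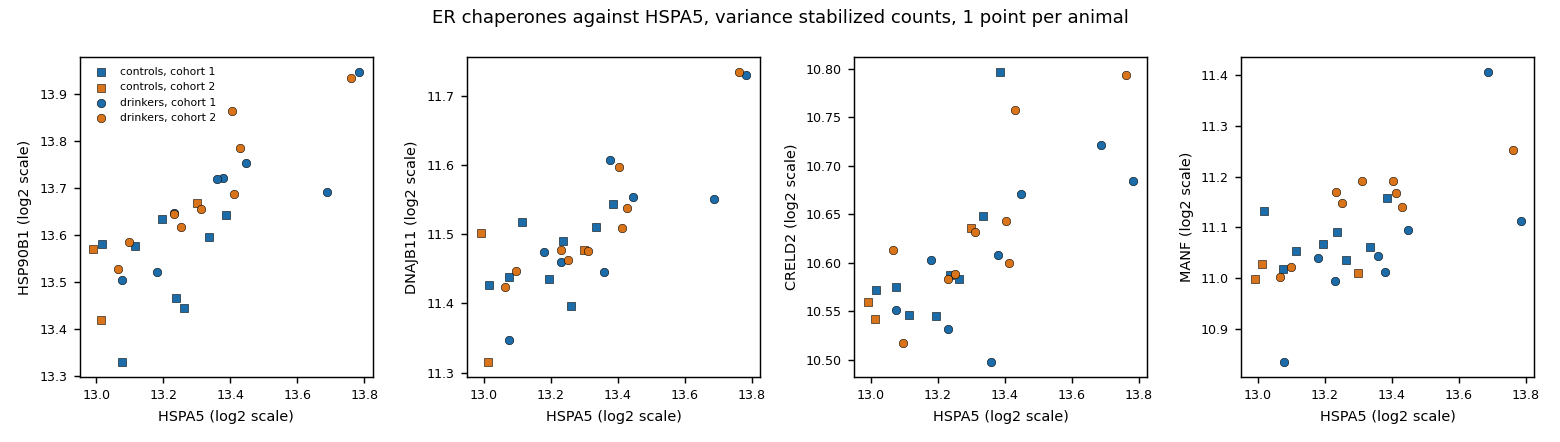
Variance stabilized counts (log2 scale) of HSP90B1, DNAJB11, CRELD2 and MANF against HSPA5, 1 point per animal, squares for controls, circles for drinkers, blue for cohort 1 and orange for cohort 2. The points rise together in each panel, with r from 0.65 for MANF to 0.82 for DNAJB11, and the 3 animals highest in HSPA5 are drinkers.

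Not every ER member belonged to this group. PDIA4 had r = 0.45 with HSPA5, DNAJC3, a J protein that also binds PERK, had r = 0.29, and CANX, the membrane lectin chaperone, had r = 0.22. PDIA6, which holds the same promoter element as HSPA5, had r = 0.09, and its listed transcript had a median of 115 counts. P4HB (r = -0.09), PDIA3 (r = -0.26) and ERN1 (r = -0.33) had values below 0. ATF4 had r = -0.24, and DDIT3, the proapoptotic target of ATF4 known as CHOP, had r = 0.37.

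Of 22 gene pairs set for testing, 19 had both genes tested, and 8 of them had an adjusted p under 0.05 (permutation test, 100000 permutations of animals, two-sided, adjusted over the 19 pairs). HSPA5 and HSP90B1 had r = 0.80 with an adjusted p of 0.00019 (permutation p = 1e-05, the smallest these permutations can give) and rho = 0.84 (permutation p = 1e-05). Without the 2 animals farthest from the median of HSPA5, r was 0.68, and it was 0.77 in cohort 1 and 0.92 in cohort 2. It was 0.87 in drinkers and 0.41 in controls, a difference that was not tested. HSPA5 and MANF had r = 0.65 (permutation p = 0.00022, adjusted 0.00209) and rho = 0.63 (permutation p = 0.0005). That pair kept r = 0.67 without its 2 farthest animals, with 0.59 in cohort 1 and 0.83 in cohort 2, and r was 0.68 in drinkers and 0.35 in controls, likewise not tested.

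HSPA5 and PDIA4 were less firmly tied. They had r = 0.45 (permutation p = 0.0178, adjusted 0.0423) and rho = 0.42 (permutation p = 0.027). Without the 2 farthest animals r was 0.30 (permutation p = 0.132), so its size depends in part on those animals. Within cohorts r was 0.17 in cohort 1 against 0.795 in cohort 2. The pairs HSPA5 with HERPUD1 (r = 0.21, permutation p = 0.293, adjusted 0.464, rho = 0.10, permutation p = 0.613) and DNAJB11 with SDF2L1, an ER stress target that partners the J proteins (r = 0.28, permutation p = 0.15, adjusted 0.285, rho = 0.13, permutation p = 0.502), did not pass. Without their 2 farthest animals r was 0.24 and 0.17, in cohort 1 it was 0.29 and -0.03, and in cohort 2 it was 0.13 and 0.64. The pairs HSPA5 with CALR, HSPH1 with DNAJB1 and HSP90AA1 with HSP90AB1 did not pass either, with adjusted permutation p of 0.581, 0.294 and 0.581.

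Within the unfolded protein response, the pairs of a regulator with its known target did not pass. XBP1 and DNAJB9, a J protein induced through XBP1, had r = -0.115 (permutation p = 0.557, adjusted 0.587) and rho = -0.16 (permutation p = 0.426), with r = -0.30 without the 2 farthest animals, -0.21 in cohort 1 and 0.01 in cohort 2. ATF4 and DDIT3 had r = 0.14 (permutation p = 0.469, adjusted 0.581) and rho = 0.03 (permutation p = 0.867), with r = 0.115 without the 2 farthest, -0.01 in cohort 1 and -0.19 in cohort 2. A level of XBP1 does not show how much of it is spliced to the active form, which was not measured.

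Among cytosolic members, BAG3 and HSPB1, which act together in chaperone-assisted autophagy, had r = 0.54 (permutation p = 0.00279, adjusted 0.0133) and rho = 0.59 (permutation p = 0.00129). Their r was 0.60 without the 2 farthest animals, 0.385 in cohort 1 and 0.745 in cohort 2. The small heat shock proteins HSPB1 and CRYAB had r = 0.49 (permutation p = 0.00739, adjusted 0.0234) and rho = 0.42 (permutation p = 0.0248). Without the 2 farthest animals r was 0.30 (permutation p = 0.134), so its size depends in part on them, and within cohorts r was 0.42 and 0.52.

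HSP90AA1 and HSPH1, an Hsp110 exchange factor, did not pass (r = 0.33, permutation p = 0.0921, adjusted 0.195, rho = 0.44, permutation p = 0.0221, r = 0.28 without the 2 farthest), and r was 0.35 in cohort 1 and -0.12 in cohort 2. HSPA5 and its cytosolic relative HSPA8 had r = 0.01 (permutation p = 0.973, adjusted 0.973) and rho = 0.07 (permutation p = 0.726), so no relation between the Hsp70 genes of ER and cytosol was detectable. For that pair r was 0.21 without the 2 farthest animals, -0.16 in cohort 1 and 0.32 in cohort 2.

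The mitochondrial chaperonin genes HSPD1 and HSPE1 lie head to head, with RefSeq start sites 603 bases apart on opposite strands of chromosome 12. They had r = 0.48 (permutation p = 0.00905, adjusted 0.0246) and rho = 0.37 (permutation p = 0.0493). Without the 2 farthest animals r was 0.29 (permutation p = 0.155), it was 0.69 in cohort 1 and -0.07 in cohort 2, and with the GC trend removed it was 0.23 with an adjusted permutation p of 0.384.

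Some members were paired with a marker of a cell type. HSPB1 varied with CLDN5, a tight junction gene of endothelial cells, at r = 0.495 (permutation p = 0.00699, adjusted 0.0234, rho = 0.55, permutation p = 0.00272), with r = 0.46 without the 2 farthest animals and 0.455 and 0.661 in the cohorts. HSPB1 and GFAP had r = 0.16 (permutation p = 0.409, adjusted 0.573, rho = 0.20, permutation p = 0.302), and r was 0.14 without the 2 farthest animals and 0.07 and 0.38 in the cohorts. HSPA8 and the neuronal gene SNAP25 had r = -0.16 (permutation p = 0.423, adjusted 0.573, rho = -0.255, permutation p = 0.189), with -0.19 without the 2 farthest animals and -0.27 and 0.41 in the cohorts. How far the cell makeup of each punch sets these levels was not tested.

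The list as a whole was loosely tied. Over all 741 pairs of the 39 tested members the median r was 0.061, with a jackknife standard error over animals of 0.035, and over all pairs of the 13769 transcripts it was 0.002. Among the 35 members with counts in every animal, 37 of 595 pairs had r of at least 0.5 and 7 had r of at most -0.5. The 17 ER members among them had a median r of 0.06 with each other, the 9 cytosolic members 0.26, and ER with cytosolic members 0.06, so the tight ER group is a small part of the ER list. With at least 10 counts in every animal required, the median r was 0.088 over member pairs and -0.002 over all pairs. How many of all transcript pairs lie past 0.5 or -0.5 was not counted, so the counts of pairs only describe the members.

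**Figure D2:**
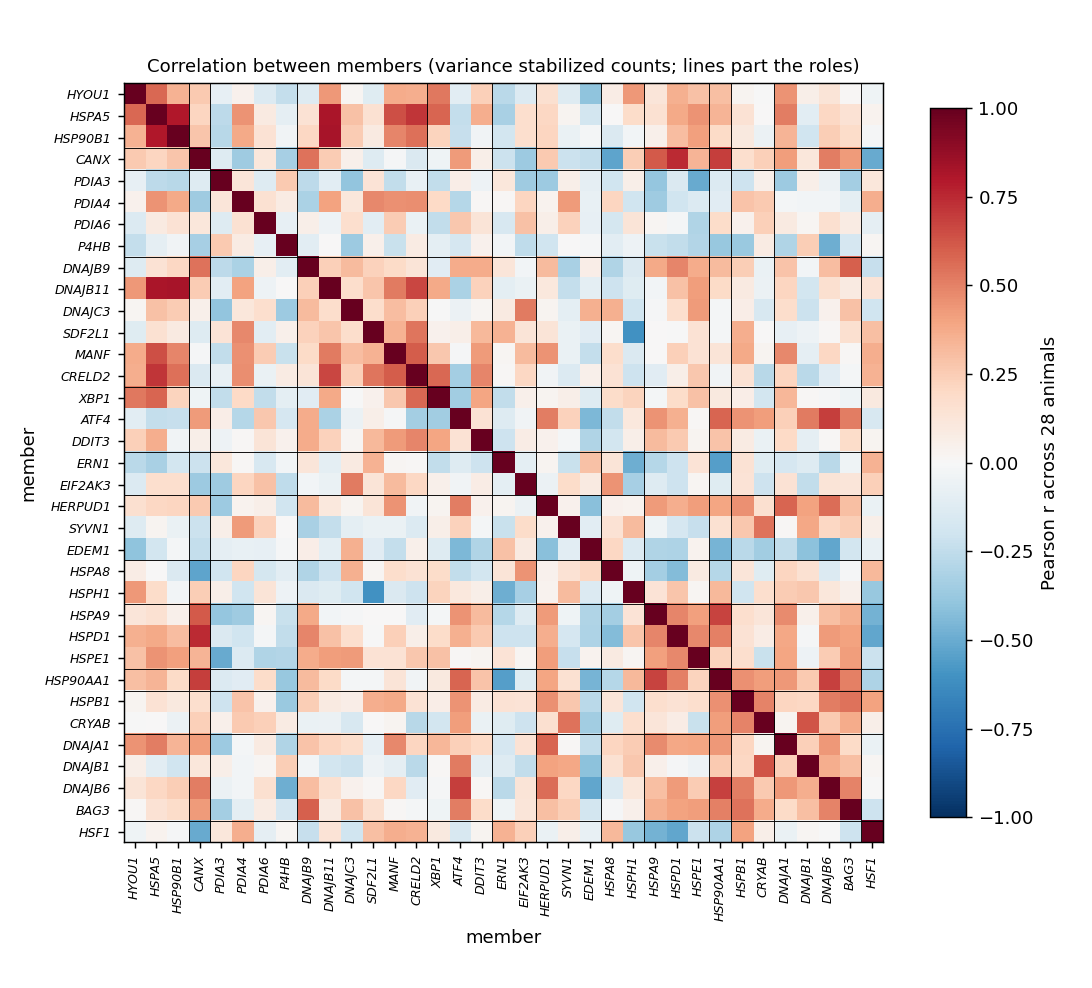
Pearson r across 28 animals between the 35 members with counts in every animal, on variance stabilized counts, with members in order of role and black lines between roles (red positive, blue negative). The darkest block joins HSPA5, HSP90B1 and DNAJB11 (r from 0.80 to 0.82), and the deepest blue is SDF2L1 with HSPH1 (r = -0.61).

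Another set, made of members from different compartments, varied together. CANX was tied to HSPD1 (r = 0.74) and to HSP90AA1 (r = 0.69), and HSP90AA1 to HSPA9 (r = 0.68) and to the J protein DNAJB6 (r = 0.68), which in turn followed ATF4 (r = 0.69). These values are a description of the largest pairs and carry no test. The gap in r between groups of animals was wide for some pairs and narrow for others, and it was not tested. HSPA9 with HSP90AA1 had r = 0.85 in drinkers and 0.17 in controls, and 0.83 in cohort 1 and 0.37 in cohort 2. CANX with HSP90AA1 had 0.64 in cohort 1 and 0.46 in cohort 2, and CANX with HSPD1 had 0.76 and 0.58. HSP90AA1 with DNAJB6 was at 0.68 in each cohort, with 0.68 in drinkers and 0.71 in controls. ATF4 with DNAJB6 had 0.62 in drinkers and 0.85 in controls, and 0.59 in cohort 1 and 0.74 in cohort 2. HSP90AA1, CANX and HSPD1 are also among the members with an unadjusted p under 0.05 between cohorts. With the GC trend removed CANX with HSPD1 was at 0.66, CANX with HSP90AA1 at 0.63, HSPA9 with HSP90AA1 at 0.61, HSP90AA1 with DNAJB6 at 0.45 and ATF4 with DNAJB6 at 0.72. The lowest pair did not keep its sign: SDF2L1 with HSPH1 went from -0.61 to 0.19 with the GC trend removed.

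The first comparison asked whether drinkers differed from controls after abstinence. For HSPA5 the controls spanned 6355 to 8898 normalized counts (median 7571) and the drinkers 6779 to 12278 (median 8702). Means were 7491 ± 893 (SD, n = 11) and 8821 ± 1690 (SD, n = 17). The ranges overlap, and the upper end of the drinkers is made of very heavy drinkers 3 and 4 and heavy drinker 1, at 12278, 12052 and 11374, above the next animal at 9353.

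HSP90B1 ran from 8481 to 11190 in controls (median 10391) and from 9793 to 13955 in drinkers (median 11359). It had the lowest p of the members, with a log2 fold change of 0.18 ± 0.06 (SE), a 1.13-fold higher level, and an edgeR p of 0.00592 that became 0.599 after adjustment. HSPA5 had 0.23 ± 0.09, or 1.17-fold, with an adjusted p of 0.938 by edgeR. CALR had the next lowest edgeR p after HSP90B1 (p = 0.0103, adjusted 0.777), and that rests on counts in 4 drinkers and 1 control.

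No member passed an adjusted p of 0.05 between drinkers and controls by edgeR's quasi-likelihood test, as none of all transcripts did (0%). At an unadjusted p under 0.05 there were 7 of 39 members, 6 higher and 1 lower in drinkers, against 4.57% of all transcripts (2.52% higher and 2.05% lower), and by limma-voom there were 4 members (5.32% of all). Of the 7 members, 2 have zeros in many animals and no usable fold, and the other 5 were 4 higher and 1 lower. With the GC trend removed there were 4 (3 higher, 1 lower), against 3.2% of all transcripts. Besides HSP90B1, HSPA5 and the sparse CALR and HSPA4, the 7 in the edgeR fit included HSPD1 (0.36 ± 0.17), HSPE1 (0.34 ± 0.17) and, on the lower side, PDIA3 (-1.18 ± 0.54). In all, 29 of 39 members had a log2 fold change above 0, where 50.3% of all transcripts did, and the median was 0.05 over the members and 0.00 over all transcripts. With the GC trend removed HSP90B1 was at 0.11 and HSPA5 at 0.21.

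The 6 regulators with counts in every animal had log2 fold changes between drinkers and controls of -0.16 ± 0.12 (ERN1), -0.10 ± 0.08 (HSF1), 0.09 ± 0.12 (EIF2AK3), 0.04 ± 0.09 (XBP1), -0.02 ± 0.09 (ATF4) and 0.00 ± 0.10 (DDIT3), none at an unadjusted edgeR p under 0.05. XBP1 ran from 523 to 840 in controls and from 533 to 1045 in drinkers, with medians of 673 and 651. ATF4 ran from 5005 to 8201 in controls (median 6099) and from 4193 to 8353 in drinkers (median 5904). DDIT3 ran from 302 to 524 in controls (median 397) and from 309 to 634 in drinkers (median 386). In these 3 the drinkers' range covered nearly all of the controls' range.

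The ranges of the cytosolic members overlapped between the arms too. DNAJB1, an HSF1 target and partner of Hsp70, had medians of 3516 in controls (3011 to 4124) and 3388 in drinkers (2671 to 4899). HSPB1 had medians of 1449 (869 to 2462) and 1453 (995 to 2032), and CRYAB of 22202 (14698 to 32319) and 21602 (15830 to 28087). HSP90AA1 had medians of 64389 in controls (55432 to 81852) and 68005 in drinkers (44079 to 84987).

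**Figure D3:**
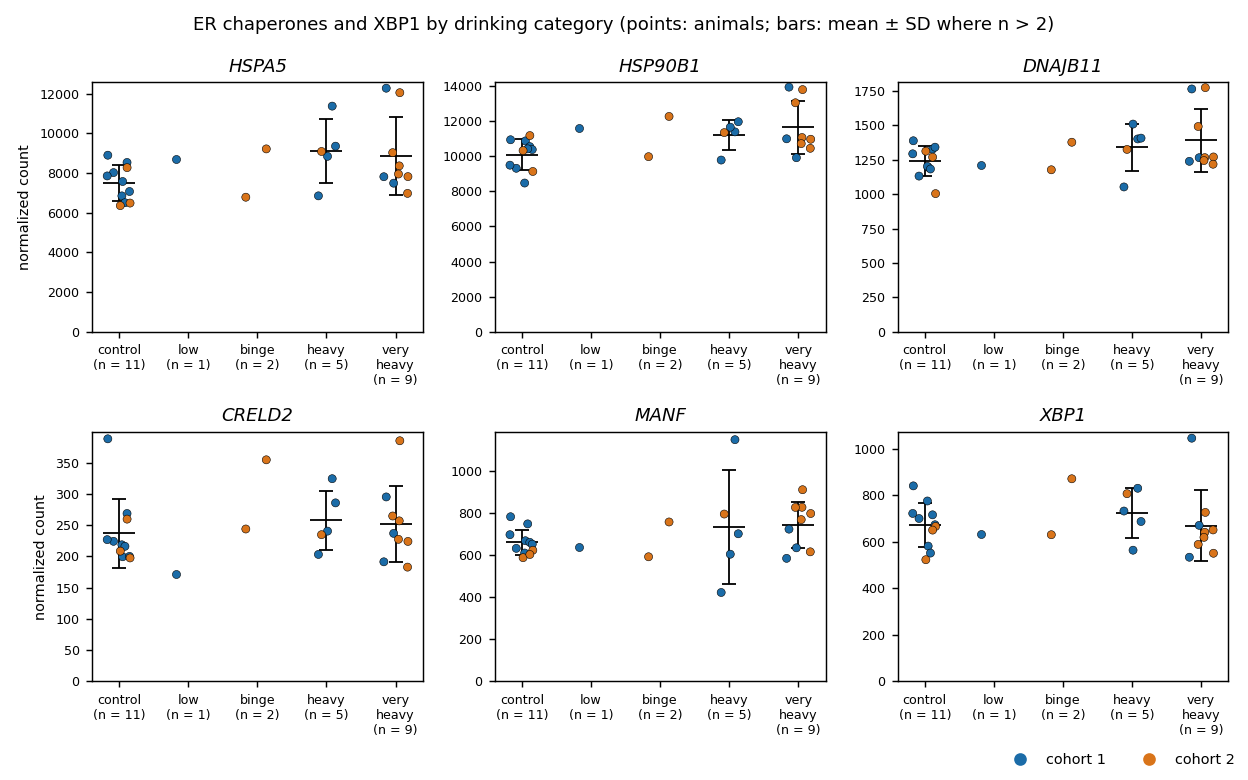
Normalized counts of 6 members by drinking category, 1 point per animal, blue for cohort 1 and orange for cohort 2, with bars for the mean and SD where a category has more than 2 animals. HSPA5 averages 7491 in controls and 8821 in all drinkers, and its 3 highest points, from 11374 to 12278, are heavy or very heavy drinkers.

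For HSPA5 and HSP90B1 the differences between drinking categories were small too. In the heavy drinkers HSPA5 was 11374, 6848, 9353, 8840 and 9086, and in the very heavy drinkers it ran from 6972 to 12278 with a median of 7949. The low drinker had 8702 and the binge drinkers 9216 and 6779. HSP90B1 was 11401, 9793, 11979, 11668 and 11359 in heavy drinkers and ran from 9925 to 13955 (median 11006) in very heavy drinkers. There was thus no step from heavy to very heavy drinking in either gene that exceeded the spread within a category.

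Very heavy drinkers and controls differed in no member by edgeR at an adjusted p of 0.05 (0% of all transcripts), and in 5 of 39, all higher, at an unadjusted p under 0.05 (4.62% of all transcripts, 2.29% higher and 2.33% lower). Of these 5, CALR and HSPA4 have no usable fold, and HSP90B1, HSPA5 and HSPD1 remain. By limma-voom there were 2, against 4.31% of all transcripts. A log2 fold change above 0 was found for 20 of 39 members and 48.3% of all transcripts. The lowest usable p was that of HSP90B1 (log2 fold change 0.20 ± 0.07, edgeR adjusted p = 0.766), and CALR had an adjusted p of 0.766 by edgeR from counts in 2 very heavy drinkers. Heavy drinkers and controls also differed in no member (0% of all), and 5 had an unadjusted p under 0.05, 3 higher and 2 lower (7.15% of all, 2.35% higher and 4.8% lower). CALR, with no usable fold, is 1 of the 3. The 5 became 2 without heavy drinker 1 (5.89% of all), 3 without heavy drinker 3 (6.9% of all) and 3 with the GC trend removed (5.89% of all). Of the members 29 of 39 were above 0, and of all transcripts 48.2%. No member had values without overlap between these groups (0.0581% of all). By DESeq2, 1 member, PDIA3, passed in the comparison of heavy drinkers with controls, where 0.349% of all transcripts did.

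PDIA3 was 8.64, 287, 101, 502 and 8.48 in the 5 heavy drinkers and ran from 133 to 2494 in controls, with a median of 1755. The very heavy drinkers ran from 89.4 to 1274 with a median of 867. Every heavy drinker was below the control median, but the ranges overlap, since controls 10 and 1 were at 133 and 253. The log2 fold change was -2.97 ± 0.83 against controls, with an adjusted p of 0.554 by edgeR and 0.0126 by DESeq2. Leaving out each heavy drinker in turn gave edgeR values between -3.82 and -2.65, none of them past the test. Of the heavy drinkers, 4 belong to cohort 1.

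Very heavy and heavy drinkers differed in no member (0% of all transcripts by edgeR), and in 2 of 39 at an unadjusted p under 0.05, 1 in each direction (6.8% of all, 4.1% higher and 2.69% lower). Above 0 were 17 of 39 members and 51.8% of all transcripts, and 0 members had values without overlap (0.0944% of all). The 2 became 1 without heavy drinker 1, 3 or 5 (5.91%, 6.96% and 8.44% of all) and with the GC trend removed (7.02% of all). The 2 were PDIA3 (2.14 ± 0.81, edgeR adjusted p = 0.617) and EIF2AK3, the PERK kinase (-0.36 ± 0.17, edgeR adjusted p = 0.711). Fits without each heavy drinker in turn put PDIA3 between 1.83 and 2.99, and limma-voom put it at 3.29, none of them past the test. EIF2AK3 was 688, 595, 620, 314 and 572 in heavy drinkers, ran from 290 to 555 in very heavy drinkers (median 424) and from 304 to 509 in controls (median 463). Heavy drinkers 1, 2, 3 and 5 thus lay above every very heavy drinker and every control, and heavy drinker 4 was low, without which the log2 difference was -0.51 with an adjusted p of 0.679 by edgeR. Without heavy drinker 1, 2, 3 or 5 it was -0.29, -0.34, -0.32 or -0.36, and edgeR's unadjusted p was then 0.119, 0.0709, 0.0881 or 0.0613. Of the heavy drinkers 4 were in cohort 1 and 1 in cohort 2, and of the very heavy drinkers 3 and 6. Category and cohort are thus partly mixed in this contrast. With cohort as a term EIF2AK3 was at -0.53 (edgeR unadjusted p = 0.00439, adjusted 0.623). PDIA3 was then at 2.63 (edgeR unadjusted p = 0.00921, adjusted 0.66).

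The cohorts were then taken one at a time. In cohort 1, which has 8 animals on each side, no member passed by edgeR (0.0382% of all transcripts did), and 11 of 39 had an unadjusted p under 0.05, 8 higher and 3 lower in drinkers (10.2% of all, 4.84% higher and 5.33% lower). The 8 include CALR and HSPA4, which have no usable fold, so that 6 higher and 3 lower remain. The 11 became 6 (4 higher, 2 lower) with the GC trend removed, where 6.17% of all transcripts had such a p, and 7 (4 higher, 3 lower) with the neuron marker term, where 8.22% did. In all, 25 of 39 members were above 0, against 49.4% of all transcripts. DESeq2 called 2 of them, HSPA9 higher (adjusted p = 0.00206) and HSF1 lower (adjusted p = 0.0425), where it called 1.4% of all transcripts, and limma-voom called 0 members. HSPA9, the mitochondrial Hsp70, ran from 6127 to 8015 in controls (median 6917) and from 7474 to 8905 in drinkers (median 8255), a log2 fold change of 0.24 ± 0.06 with an adjusted p of 0.176 by edgeR. HSF1 ran from 854 to 1016 in controls (median 963) and from 586 to 853 in drinkers (median 815), so its groups lay side by side without overlapping.

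HSF1 was the only member whose groups did not overlap in cohort 1, where 0.167% of all transcripts had this property. Its log2 fold change was -0.32 ± 0.09 (edgeR adjusted p = 0.191), and it was -0.12 with an adjusted p of 0.939 by edgeR once the GC trend was removed. The low end of its drinkers was made of very heavy drinker 2 and low drinker 1, at 586 and 633. HSPD1 (0.63 ± 0.23) and HSPE1 (0.56 ± 0.22), the mitochondrial chaperonin and its cochaperonin, were also on the higher side in cohort 1, while HSPA8 was on the lower side (-0.35 ± 0.14), all with edgeR adjusted p above the threshold (0.319, 0.369 and 0.375).

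In cohort 2, with 3 controls, no member passed by edgeR (0% of all), and 5 of 38 had an unadjusted p under 0.05, all higher in drinkers (3.76% of all, 2.12% higher and 1.64% lower), and 28 of 38 members were above 0 (51.6% of all). ATF6, at 0 in all 3 controls and with no usable fold, is 1 of the 5. The 5 became 3, 2 and 3 when control 9, 10 or 11 was left out, in fits where 3.64%, 2.44% and 4.84% of all transcripts had such a p. With the summed level of neuron markers as a term, a level whose values by arm are given with HSPA9, it was 1 member and 2.08% of all transcripts. SYVN1, the ubiquitin ligase of ER-associated degradation, was 55.5, 106 and 71.6 in the controls and ran from 99.96 to 158 in drinkers (median 128), a log2 fold change of 0.68 ± 0.24 with an adjusted p of 1.00 by edgeR. Without control 9 or 11 its unadjusted edgeR p was 0.0828 or 0.0569. MANF was 588, 623 and 603 in the controls and ran from 592 to 911 in drinkers (median 795), a log2 fold change of 0.34 ± 0.12 with an adjusted p of 1.00 by edgeR. Without control 9 or 11 its unadjusted edgeR p was 0.0509 or 0.05001, and with the neuron marker term it was at 0.26 with an unadjusted edgeR p of 0.151. In both genes the drinkers' range began within the controls' range. No member had groups that did not overlap in cohort 2 (0.632% of all transcripts).

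**Figure D4:**
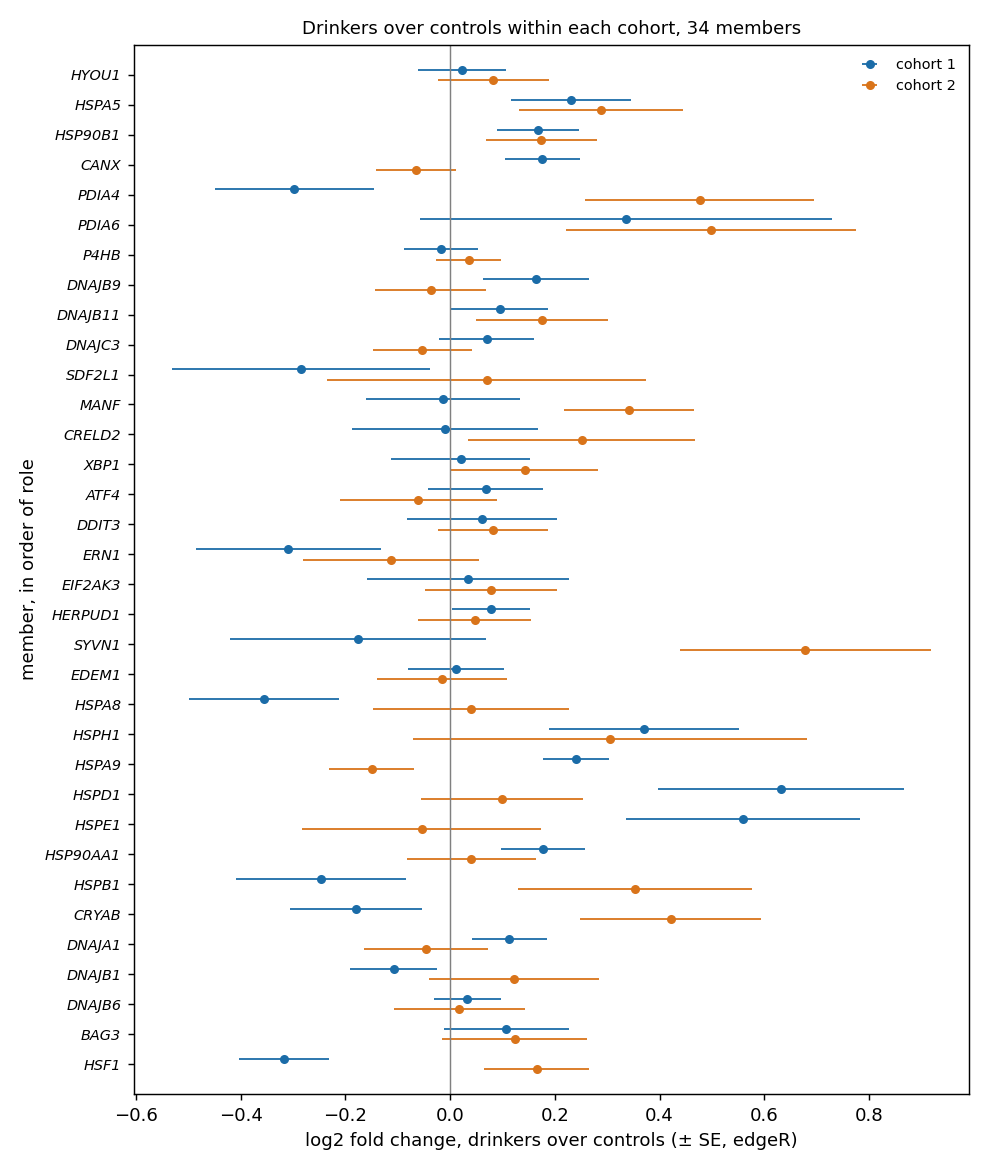
Log2 fold change of drinkers over controls (± SE, edgeR) in cohort 1 (blue) and cohort 2 (orange) for 34 members with counts in every animal, in order of role, PDIA3 left out for its scale. HSPA5 and HSP90B1 lie to the right of 0 in both cohorts, whereas HSF1 and HSPA9 lie on opposite sides.

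The 2 cohorts are set side by side here for each member. HSPA5 was at 0.23 ± 0.11 in cohort 1 and 0.29 ± 0.16 in cohort 2, and HSP90B1 at 0.17 ± 0.08 and 0.17 ± 0.11. Of the 35 members with counts in every animal, 14 were above 0 in both cohorts, 2 (PDIA3 and ERN1) below 0 in both, 11 lower in cohort 1 and higher in cohort 2, and 8 the reverse. Other ER folding members were among those on opposite sides, such as CANX, PDIA4, P4HB, MANF and CRELD2. Directions of members whose fold change is within its error count equally in these numbers. The share of all transcripts with each pair of directions was not counted, so these numbers only describe the members.

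The difference of the drinker effect between cohorts was tested itself, as an interaction over all 28 animals. No member passed by edgeR (0.0145% of all transcripts), and 8 of 39 had an unadjusted p under 0.05, 6 positive and 2 negative (9.62% of all, 4.93% positive and 4.69% negative), with ATF6, which has no usable fold, among the 6, while 24 of 39 were above 0 (53.7% of all). HSPA9 (-0.39 ± 0.10, edgeR adjusted p = 0.196) and HSF1 (0.48 ± 0.13, edgeR adjusted p = 0.22) came first, and DESeq2 called both (adjusted p = 0.00423 and 0.0353), as it did 1.14% of all transcripts. With the GC trend removed there were 5 members (4 positive, 1 negative) against 7.52% of all transcripts, HSPA9 was at -0.35 (edgeR adjusted p = 0.537) and HSF1 at 0.27 (edgeR adjusted p = 0.603). HSPA9 was 7830, 8422 and 6552 in the controls of cohort 2 and ran from 6374 to 7605 in its drinkers, so it leaned lower there. For HSP90B1 the interaction was 0.01 ± 0.13 and for HSPA5 0.06 ± 0.20, intervals that leave room for a difference in either direction.

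In each cohort the median neuron marker level, a sum that 4 transcripts carry, differed between the arms in the same direction as HSPA9. Their correlation across animals was not computed. The neurofilament genes NEFM and NEFL had median counts of 41126 and 32835 and SNAP25 and SYP of 16915 and 12719, while RBFOX3 and SYT1 had medians of 0, ENO2 of 17 and STMN2 of 112. Their summed normalized counts over 8 markers ran from 61037 to 201216 in the controls of cohort 1 (median 94254) and from 86387 to 399205 in its drinkers (median 178532), and the order was the reverse in cohort 2, with a median of 174858 in controls (89447 to 195466) and 92868 in drinkers (65345 to 112818). With that summed level as a term, added after the data were seen, HSPA9 was at 0.17 ± 0.06 in cohort 1 (edgeR adjusted p = 0.431) and its interaction at -0.25 ± 0.10 (edgeR adjusted p = 0.638), and HSF1 was at -0.29 and 0.44. HSP90B1 over all animals stood at 0.18 ± 0.06 with the term, as without it.

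**Figure D5:**
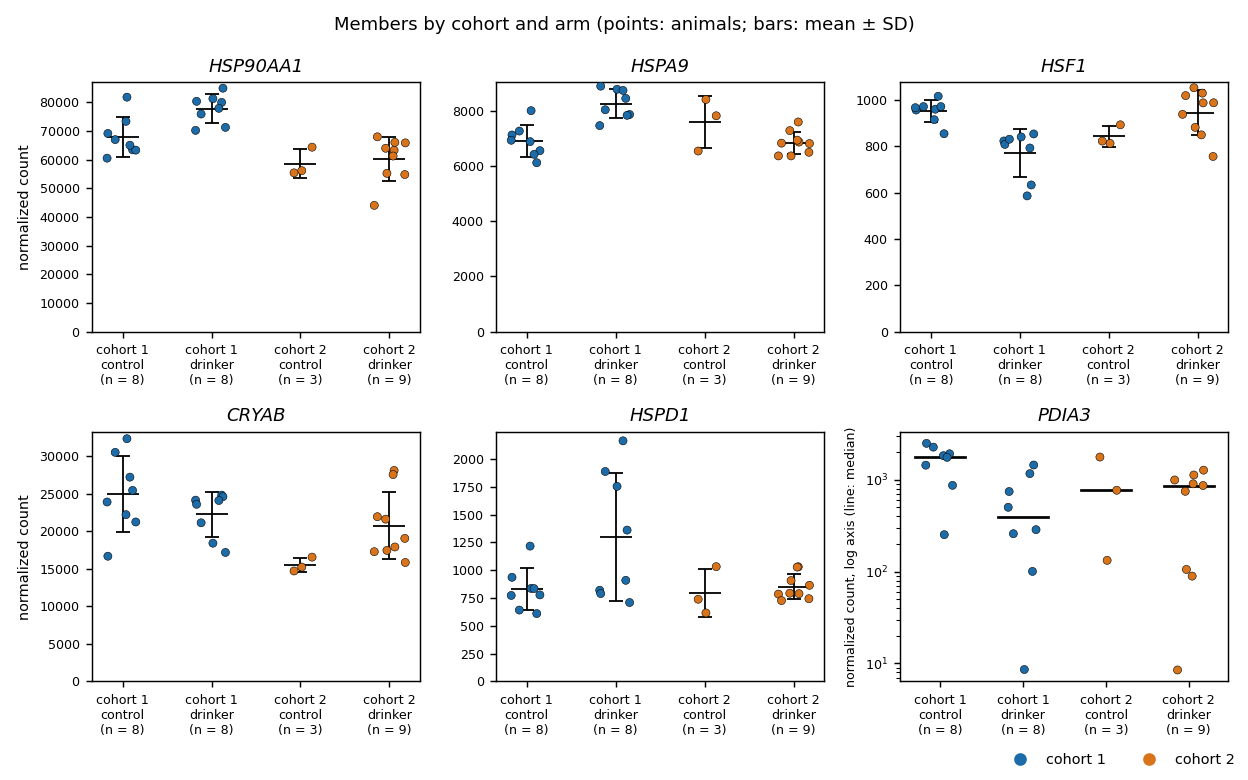
Normalized counts by cohort and arm for HSP90AA1, HSPA9, HSF1, CRYAB, HSPD1 and PDIA3, 1 point per animal, with mean and SD, except PDIA3, which is on a log axis with the median. HSF1 separates controls (854 to 1016) from drinkers (586 to 853) in cohort 1 only, and HSP90AA1 is lower in cohort 2 in both arms.

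The lowest p of any member came from the comparison of the cohorts themselves, with the arm as a term. HSP90AA1, the stress-inducible cytosolic Hsp90, was lower in cohort 2 by 0.30 ± 0.06 on the log2 scale, a level 0.814 times that of cohort 1, with an adjusted p of 0.0899 by edgeR, 0.0264 by limma-voom and 6.1e-05 by DESeq2. Limma-voom called 0.167% of all transcripts here and DESeq2 0.879%. In cohort 1 it ran from 60554 to 84987 (median 72355) and in cohort 2 from 44079 to 68005 (median 62311). Its controls of cohort 2, at 64389, 56179 and 55432, were 1 within and 2 below the range of the 8 controls of cohort 1 (60554 to 81852). Among drinkers only, where 0.796% of all transcripts passed, the difference was -0.35 with an adjusted p of 0.0581 by edgeR, and among controls only it was -0.21 with 1.00.

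No member passed between cohorts by edgeR (0.0436% of all transcripts), and 11 of 39 had an unadjusted p under 0.05, 3 higher and 8 lower in cohort 2 (9.8% of all, 5.53% higher and 4.27% lower). Above 0 were 15 of 39 members and 52.8% of all transcripts. In controls only there were 6, all lower, against 3.9% of all. After HSP90AA1 the lowest p was that of CALR (edgeR adjusted p = 0.207), whose counts above 10 lay in 2 animals of cohort 1. The others on the lower side were CANX (-0.16 ± 0.05), BAG3 (-0.23 ± 0.09), DDIT3 (-0.24 ± 0.09), HSPD1 (-0.40 ± 0.16), HSPH1 (-0.44 ± 0.18) and CRYAB (-0.27 ± 0.12), and on the higher side HSPA8 (0.30 ± 0.12), ERN1 (0.27 ± 0.11) and EDEM1 (0.16 ± 0.07). HSPA5 was at -0.08 ± 0.09 and HSP90B1 at 0.03 ± 0.06. Oligodendrocyte markers, from cells known to make CRYAB in quantity, had a median summed level of 360098 in cohort 1 (249925 to 444528) and 304087 in cohort 2 (277857 to 408106). Their part in the difference was not tested.

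Other genes of these pathways, listed apart from the members, gave no call either. Of the 35 further ER folding, degradation and response genes 29 were tested in drinkers against controls, and 0 passed by edgeR, with 0 at an unadjusted p under 0.05, where 4.57% of all transcripts were. Of 38 further cytosolic and mitochondrial chaperones and cochaperones 33 were tested, and 0 passed by edgeR, with 2 lower at an unadjusted p under 0.05. Between cohorts 0 of either list passed by edgeR, and 3 of 29 and 4 of 33 had an unadjusted p under 0.05, near the 9.8% of all transcripts.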

How the data were processed

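Per the labels, 1 library was made from the VTA punch of each of 28 animals with a Nugen mRNA kit. The processing notes name Trim Galore 0.6.7, Salmon 1.9.0 and DESeq2 1.36.0, and the authors deposited Salmon's estimated counts, not normalized, with 1 Ensembl transcript per gene. How that transcript was chosen is not given in the sources used here. The genes and lists were chosen with earlier results of these data known. By the rule for named genes, statistics are given for the 2 members with the lowest p in a comparison where none passed, values by animal for HSPA5, HSP90B1, XBP1, ATF4, DDIT3, DNAJB1, HSP90AA1, CRYAB, HSPB1 and those members, and the 5 transcripts nearest to HSPA5. Other members and pairs were named after their values were seen.

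Estimated counts were rounded to whole numbers. 1 row without a gene symbol (1.16e-05% of counts) was left out. Transcripts reaching 5 counts in 3 or more animals were tested with edgeR 4.0.16 in R 4.3.3 (TMM scaling, quasi-likelihood test, Benjamini-Hochberg adjustment over all transcripts tested, threshold 0.05). An SE is the log2 fold change divided by the square root of F. Groups came from the labels' drinking categories and cohorts from the study's source data and methods. Drinkers and controls within a cohort were compared on that cohort's animals, and all other contrasts on all 28 animals. Normalized counts are counts divided by size factors of DESeq2 1.42.0, whose variance stabilized counts gave the correlations. DESeq2's Wald test, limma-voom (limma 3.58.1), other scalings, filters and added terms were alternatives. Depth here is limited to 12303914 to 27338669 estimated counts per animal over the listed transcripts, which is not the number of reads sequenced. The fits were tested on simulated data first. No pair of libraries looked like a repeat, as at most 1.62% of tested transcripts had the same count above 0 in 2 animals. Animals are separate, so p-values measure the spread between animals. The result of 1 gene pair past the test and 1 promoter sequence are not reported here.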

Additional observations from a re-analysis of the deposited data

Results flagged for a closer look

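Of 75 sets of values examined (15 genes in 5 groups of animals), 5 had an animal farther from the rest than Dixon's 95% limit, and chance alone gives about 1 in 20. Very heavy drinker 4 had 12052 normalized counts of HSPA5, the ER Hsp70, among the 9 drinkers of cohort 2, where the nearest animal had 9216. Heavy drinker 2 had the lowest HSP90B1 of the 5 heavy drinkers, 9793 against 11359 for the nearest. Very heavy drinker 3 had 1045 normalized counts of XBP1, with the nearest very heavy drinker at 726. Heavy drinker 5, the 1 heavy drinker of cohort 2, had 1019 of HSF1 against 853 for the nearest. Heavy drinker 1 had 1149 of MANF among the 8 drinkers of cohort 1, where the nearest had 724.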

How the results depend on the processing

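Of 86 alternative fits of the 8 comparisons, 80 called 0 members, as edgeR did. The others were DESeq2 in cohort 1 (2 members) and for the difference between cohorts (2), DESeq2, limma-voom and the drinkers alone for cohort 2 against cohort 1 (1 each), and DESeq2 for heavy drinkers against controls (1). The member called among the drinkers alone was HSPA9 (-0.25, edgeR adjusted p = 0.0336). Leaving out each cohort 2 control or each heavy drinker in turn gave 0 to 0 calls. Of 137 alternative values of named log2 fold changes 130 kept their direction and side of the threshold and 7 passed it, and none changed sign. Unadjusted counts moved by over 1.5 times in 23 of 86 alternatives, to between 1 and 7. The median r between members was 0.128 in cohort 2 alone, 0.032 to 0.091 under the other alternatives, and 0.0469 to 0.0809 without each animal in turn. Of the 8 gene pairs past the test, 2 passed in drinkers alone and 0 in controls alone, and 7 to 8 under the other alternatives. The fits with the GC trend removed or the neuron marker level as a term, and the fits without each animal for the median r, were chosen after the data were seen. The causes of these shifts were not tested.

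No paired analysis was possible because the labels give no replicate numbers that tie controls to drinkers. The 3 controls of cohort 2 and the 5 heavy drinkers limit those comparisons, 6 members with zeros have no usable fold, and values stand for 1 transcript per gene.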
